A study of Mus musculus with 9 samples.

Results

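The 10 genes described here encode the enzymes and carriers that bring long-chain fatty acids into mitochondria and shorten them by beta-oxidation. They were chosen by name as the core genes of this pathway, and are Cpt1a, Cpt2, Slc25a20, Acadm, Acadl, Acadvl, Acads, Hadha, Hadhb and Etfdh, out of 37074 gene names on the arrays. Their expression was measured in whole liver on 9 Agilent arrays with 1 colour, whose 60-base probes include 14 for the 10 genes. There were 3 groups of 3 male mice or liver samples, all injected with an adeno-associated virus (AAV) made for expression in hepatocytes. AAV-V mice received the empty vector and AAV-GP73 mice a vector that expresses GP73, a Golgi protein, and both of these groups were fed a regular diet. AAV-V HFD mice received the empty vector and a high-fat diet (HFD), so that the injection and its vector are shared by AAV-V and AAV-V HFD. Per the labels the animals were 12 months old, while the text of the study counts 12 months from the injection or of the diet, and whether a sample was 1 animal or a pool is not stated in the sources used here. In whole liver, fewer cells of a type and less RNA per cell cannot be told apart. The 3 comparisons ask how the pathway stood in livers with GP73 against the empty vector, in livers on HFD against a regular diet, and between both models of fatty liver.

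In the liver, fatty acids that reach the cell from fat tissue, from the diet or from lipid droplets are activated to acyl-CoA. CPT1A at the outer mitochondrial membrane exchanges CoA for carnitine, the carrier encoded by Slc25a20 moves the acylcarnitine across the inner membrane, and CPT2 restores the CoA ester inside. Acyl-CoA dehydrogenases that differ in the chain length they prefer then take the first step of each cycle, the mitochondrial trifunctional protein built from HADHA and HADHB takes the following steps for long chains, and ETFDH hands the electrons on to the respiratory chain. Many of these genes are known targets of the nuclear receptor PPAR alpha, which binds fatty acids and is active in fasting.

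The array carried probes at different positions of some of these transcripts, and 3 of the 14 probes lay before position 1000 of their transcript. Those of Hadhb and Slc25a20 are shown. That of Hadhb was chosen because, tested by itself, it was not called, unlike the probe nearer the end of the gene. That of Slc25a20 was chosen because the gene had no other probe and could not be tested. Positions are on mm9, as the scanner files give them.
Hadhb (chr5:30503442-30503500, + strand): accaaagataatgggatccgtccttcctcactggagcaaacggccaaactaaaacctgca
Slc25a20 (chr9:108585399-108585458, + strand): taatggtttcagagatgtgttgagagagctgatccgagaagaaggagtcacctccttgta

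The sequence before the start of transcription is shown for Cpt1a, Acadm and Acadvl, the only 3 of the 10 genes with the element AGGTCA, to which nuclear receptors bind, on either strand of the 250 bases upstream of the start. The sequences are from RefSeq on GRCm38.p6, where all 10 genes were matched, and the capitals mark AGGTCA or its reverse complement.
Cpt1a (chr19:3323051-3323300, + strand): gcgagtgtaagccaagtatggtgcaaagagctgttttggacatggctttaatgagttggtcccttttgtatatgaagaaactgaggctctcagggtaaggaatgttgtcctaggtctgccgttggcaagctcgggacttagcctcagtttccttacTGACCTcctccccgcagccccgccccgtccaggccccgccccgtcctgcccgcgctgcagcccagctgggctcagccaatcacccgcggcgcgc
Acadm (chr3:153944644-153944893, - strand): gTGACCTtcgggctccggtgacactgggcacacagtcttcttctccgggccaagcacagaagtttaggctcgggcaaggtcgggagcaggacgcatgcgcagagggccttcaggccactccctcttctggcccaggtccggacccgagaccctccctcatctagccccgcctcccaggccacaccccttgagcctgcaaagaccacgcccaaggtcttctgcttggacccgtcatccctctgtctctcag
Acadvl (chr11:70015429-70015678, - strand): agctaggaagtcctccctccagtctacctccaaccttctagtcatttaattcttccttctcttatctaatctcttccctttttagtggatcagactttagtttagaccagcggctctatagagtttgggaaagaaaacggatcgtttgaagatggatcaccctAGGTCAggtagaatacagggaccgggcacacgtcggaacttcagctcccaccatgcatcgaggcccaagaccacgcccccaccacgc
In Cpt1a the element began 94 bases before the start, in Acadvl 87 and in Acadm 249. Among 32851 promoters in the table, 14.0% held AGGTCA on either strand within the same length. The repeated form AGGNCANAGGNCA, in which such receptors bind as a pair, was found in 0.338% of all promoters and in 0 of the 10 genes. A match of letters is a description and not a binding site, and the arrays measured no binding.

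Hadha and Hadhb, which encode the subunits of the trifunctional protein, start 272 bases apart on opposite strands of chromosome 5 and share the sequence between them. The 250 bases nearest to Hadhb are shown as read toward that gene, with the GC box GGGCGG in capitals.
Hadhb (chr5:30155003-30155252, + strand): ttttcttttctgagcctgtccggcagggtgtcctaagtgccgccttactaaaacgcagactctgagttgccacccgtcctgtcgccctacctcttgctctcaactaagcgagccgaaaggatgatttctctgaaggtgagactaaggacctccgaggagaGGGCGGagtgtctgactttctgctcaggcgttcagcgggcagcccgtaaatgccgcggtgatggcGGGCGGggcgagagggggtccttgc
GGGCGG on either strand was found upstream of 7 of the 10 genes (Cpt1a, Cpt2, Slc25a20, Acadl, Acads, Hadha and Hadhb) and in 32.7% of all promoters, and the TATA box TATAAA in 0 of the 10 genes and in 12.4% of all promoters. The GGGCGG counted for Hadha lies in the shared sequence and is also counted for Hadhb, so these genes are not separate cases. Of the motifs searched, AGGTCA can lie within the repeated form.

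The 3 groups of arrays did not have the same brightness, which sets what could be measured for this pathway. The share of spots detected (well above background by the scanner software) was 10.17% to 10.75% on the AAV-V arrays, 16.0% to 18.4% on those of AAV-GP73 and 13.8% to 16.7% on those of AAV-V HFD. The 2667 probes detected on every array had a median processed signal of 35.7 ± 2.83 (SD, n = 3) on the AAV-V arrays, 113 ± 14.1 on those of AAV-GP73 and 105 ± 25.2 on those of AAV-V HFD, whereas the log2 signal of the spike-in controls was 10.59 ± 0.28, 10.45 ± 0.04 and 10.71 ± 0.20. Signals are therefore given as scaled log2 values, after a shift of each array to a common 75th percentile of those 2667 probes. On this scale, probes detected on no array averaged 1.87 on the AAV-V arrays, 0.30 on those of AAV-GP73 and 0.48 on those of AAV-V HFD, so a gene without signal reads higher in AAV-V than in the other groups. A slide and its scan were shared by AAV-V and AAV-GP73, and AAV-V HFD had a slide of its own, so in comparisons with AAV-V HFD the effects of diet and of slide cannot be told apart. The gene of GP73, Golm1, had 1 probe, which was well above background on none of the 9 arrays, and so it could not serve as a check of the labels.

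Detection followed the groups closely. In AAV-V 0, 2 and 1 of the 14 probes were detected on replicates 1, 2 and 3, in AAV-GP73 9, 12 and 9, and in AAV-V HFD 9, 9 and 8. Of the 10 genes, 8 were detected on each AAV-V HFD array and on AAV-GP73 replicates 1 and 3, and 10 on AAV-GP73 replicate 2. Acadm was detected on 2 AAV-V arrays and Acadvl on 1, and the other 8 genes on none.

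**Figure D1:**
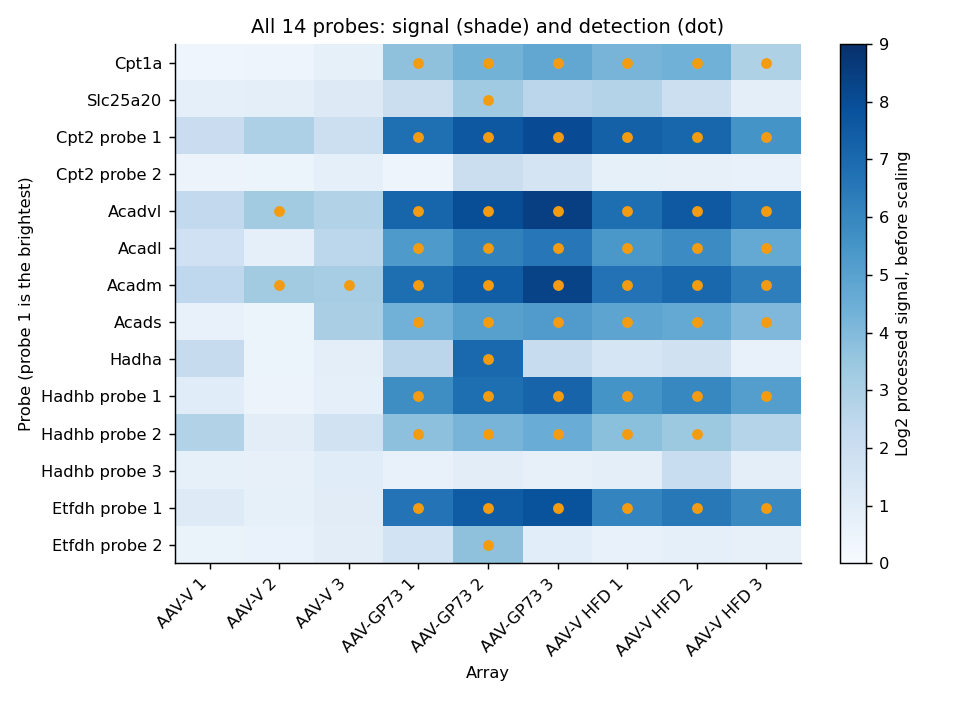
Rows are the 14 probes of the 10 genes and columns the 9 arrays. Shade is the log2 processed signal before scaling, and an orange dot marks a probe well above background on that array. The AAV-V columns hold 3 dots in all, and AAV-GP73 replicate 2 holds the most of any array, 12.

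Cpt1a, the gate of the carnitine shuttle, gave scaled log2 signals of 1.43, 1.55 and 1.61 on the AAV-V arrays, 3.30, 3.86 and 3.98 on AAV-GP73, and 3.48, 3.80 and 2.87 on AAV-V HFD. Every array of the latter groups lay above every AAV-V array, and AAV-GP73 and AAV-V HFD overlapped. The AAV-V signals were not well above background, and the signals of the other groups stayed so close to the detection limit of the AAV-V arrays (scaled log2 of 3.77 to 3.94) that no fold above 1 can be given as a lower bound for either comparison. The limma test called the gene higher in both groups against AAV-V (adjusted p = 0.000182 with GP73 and 0.000865 on HFD).

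Cpt2 had 2 probes. That nearer the end of the transcript, at position 2253, read 3.06, 4.02 and 2.84 on the AAV-V arrays, 6.39, 7.17 and 7.27 on those of AAV-GP73 and 6.53, 6.55 and 5.50 on those of AAV-V HFD. All 6 arrays of the latter groups were above all AAV-V arrays. The gene was at least 8.17-fold higher in AAV-GP73 than in AAV-V (adjusted p = 7.9e-05) and at least 4.86-fold higher in AAV-V HFD (adjusted p = 0.000416), the greatest lower bound among these genes in each comparison. The probe at position 909 was well above background on none of the 9 arrays. Slc25a20, the carrier between both carnitine transferases, read 1.83, 2.00 and 2.01 on the AAV-V arrays, 1.61, 2.87 and 1.77 on those of AAV-GP73 and 2.02, 1.37 and 0.86 on those of AAV-V HFD. Its probe was well above background on AAV-GP73 replicate 2 only, and the gene was not tested.

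The acyl-CoA dehydrogenases form a series by chain length. Acadvl, for very long chains, read 3.36, 4.34 and 3.70 in AAV-V, of which replicate 2 alone was detected, 6.76, 7.51 and 7.70 in AAV-GP73, and 6.09, 6.99 and 6.73 in AAV-V HFD. It was 11.5-fold higher in AAV-GP73 than in AAV-V (log2 fold change 3.52, SE 0.37, adjusted p = 5.97e-05) and 6.97-fold higher in AAV-V HFD (2.80, SE 0.37, adjusted p = 0.000335). Acadm, for medium chains, read 3.43, 4.36 and 4.03 on the AAV-V arrays, 6.41, 6.98 and 7.56 on those of AAV-GP73 and 5.93, 6.51 and 6.26 on those of AAV-V HFD. It was 8.23-fold higher in AAV-GP73 (log2 fold change 3.04, SE 0.35, adjusted p = 8.41e-05) and 4.91-fold higher in AAV-V HFD (2.29, SE 0.35, adjusted p = 0.000625). These were the only 2 of the 10 genes with a detected AAV-V array, and for both all AAV-V arrays lay below all others.

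Acadl, for long chains, read 2.82, 1.89 and 3.40 on the AAV-V arrays, 4.87, 5.74 and 5.76 on those of AAV-GP73 and 4.62, 5.23 and 4.65 on those of AAV-V HFD. It was at least 3.04-fold higher in AAV-GP73 than in AAV-V (adjusted p = 0.000213) and at least 1.97-fold higher in AAV-V HFD (adjusted p = 0.00156). Acads, for short chains, read 1.65, 1.66 and 3.92 on the AAV-V arrays, 3.94, 4.59 and 4.46 on those of AAV-GP73 and 4.11, 4.10 and 4.04 on those of AAV-V HFD. AAV-V replicate 3 stood just under the lowest AAV-GP73 array, although the groups did not overlap. The lower bound for Acads was 1.39-fold in AAV-GP73 (adjusted p = 0.00674) and 1.17-fold in AAV-V HFD (adjusted p = 0.0167). Without AAV-V replicate 1 or replicate 2 the AAV-V HFD call of Acads was lost (log2 fold change 1.29, adjusted p = 0.0614, and 1.30, adjusted p = 0.0636).

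Hadhb, which carries the thiolase activity of the trifunctional protein, had 3 probes. At position 1866 the signals were 2.06, 1.63 and 1.71 on the AAV-V arrays, 5.32, 6.41 and 6.43 on those of AAV-GP73 and 4.77, 5.41 and 5.08 on those of AAV-V HFD. By this probe Hadhb was at least 4.59-fold higher in AAV-GP73 than in AAV-V (adjusted p = 1.28e-05) and at least 2.35-fold higher in AAV-V HFD (adjusted p = 0.000172). The probe at position 970, shown above, read 3.85, 2.05 and 2.59 on the AAV-V arrays, 3.34, 3.80 and 3.78 on those of AAV-GP73 and 3.03, 2.81 and 2.70 on those of AAV-V HFD, and its groups overlapped in both comparisons with AAV-V. Tested by itself it differed by 0.81 on the log2 scale between AAV-GP73 and AAV-V (adjusted p = 0.098) and by 0.02 between AAV-V HFD and AAV-V (adjusted p = 0.974). This probe was well above background on 0 AAV-V arrays, 3 AAV-GP73 arrays and 2 AAV-V HFD arrays. Its AAV-V signals were thus not above background, and no lower bound on a rise could be given for it. The 2 probes therefore differed in their calls, and this does not show a difference in direction. The last probe, for another transcript, was well above background on 0 arrays.

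Hadha, the partner of Hadhb with the hydratase and dehydrogenase activities, was not tested. Its probe read 3.20, 1.63 and 1.72 on the AAV-V arrays, 2.12, 6.62 and 1.35 on those of AAV-GP73 and 0.72, 1.20 and 0.61 on those of AAV-V HFD. Only AAV-GP73 replicate 2 was well above background, with a processed signal of 133 against 5.8 and 4.3 on the other arrays of the group. That array was also the only one to detect Slc25a20 and a second Etfdh probe, while over all probes 403 were detected on it alone, against 657 on AAV-GP73 replicate 3 and 302 on replicate 1. Hadha and Hadhb, which start in the same stretch of chromosome 5 shown above, thus differed in detection on all AAV-V HFD arrays and on 2 of the 3 AAV-GP73 arrays.

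Etfdh, which passes electrons from the dehydrogenases to ubiquinone, read 2.14, 1.86 and 1.89 on the AAV-V arrays, 6.23, 7.03 and 7.01 on those of AAV-GP73 and 5.30, 5.90 and 5.88 on those of AAV-V HFD. The 3 groups were in separate ranges, the only tested gene of the 10 for which AAV-GP73 and AAV-V HFD did not overlap. It was at least 7.48-fold higher in AAV-GP73 than in AAV-V (adjusted p = 3.29e-06) and at least 3.56-fold higher in AAV-V HFD (adjusted p = 8.76e-05). Its other probe, for another transcript, was detected on AAV-GP73 replicate 2 only. Cpt1a, Hadhb and Etfdh were among the genes that the study picked from these same arrays, so their direction is not independent evidence.

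**Figure D2:**
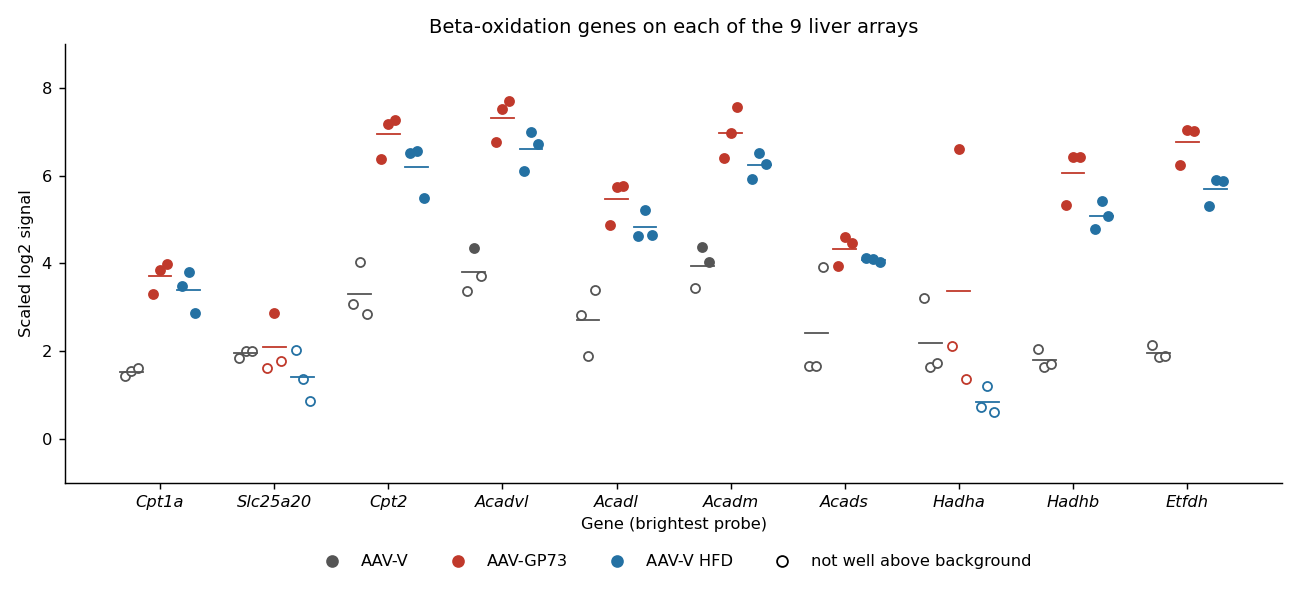
The y axis is the scaled log2 signal of the brightest probe of each gene on each array, with lines at the means of 3 arrays, and open circles were not well above background. For the 8 tested genes every AAV-GP73 (red) and AAV-V HFD (blue) array lies above every AAV-V (grey) array, and the red point of Hadha at 6.62 stands alone.

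In all, 8 of the 10 genes were tested, and 8 were called higher in AAV-GP73 than in AAV-V, where a call needs both a 2-fold difference and an adjusted p below 0.05 in the limma fit. Over all 5763 genes tested 33.2% were called higher in this comparison. The median log2 fold change was 3.28 for the 8 genes and 0.60 for all genes tested, and with genes dim on every array of a group set to their lower bound it was 2.55 and 0. For the 8 genes the arrays of AAV-GP73 lay wholly above those of AAV-V, as they did for 44.7% of all genes. Since all 8 genes passed the filter only through AAV-GP73 and AAV-V HFD, where they are high, and none through AAV-V, these counts describe the genes and are no test of them. With normexp background correction, whose offset of 50 exceeds the signals of several of these genes, 1 of the 8 was called (Acadvl), and Cpt1a and Acads turned to -0.41 each on the log2 scale. Of 2074 genes dim on all AAV-V arrays and detected on all AAV-GP73 arrays, 11.4% had a lower bound of at least 2-fold, and 4 of the 6 beta-oxidation genes in that class had one.

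In AAV-V HFD against AAV-V the same 8 were called higher, where 24.8% of all genes were called higher. With normexp 0 of the 8 were called by limma, and Cpt1a, Acads, Acadl and Hadhb turned to -0.62, -0.60, -0.36 and -0.11. The median log2 fold change was 2.55 for the 8 genes and 0.37 for all genes, and 1.53 and 0 with the lower bounds. For the 8 genes every AAV-V HFD array lay above every AAV-V array, as for 33.9% of all genes. A lower bound of at least 2-fold was reached by 3 of the 6 dim genes (Cpt2, Hadhb and Etfdh), and by 9.11% of 1317 genes of that class. Both comparisons used the same AAV-V arrays, and so they are not independent of each other.

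**Figure D3:**
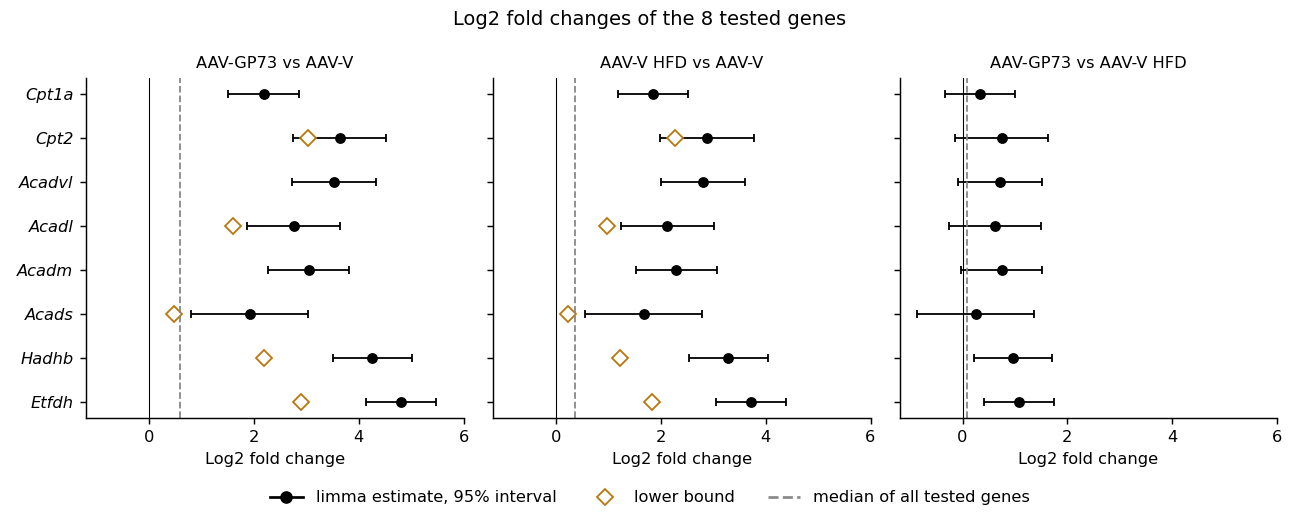
Points are log2 fold changes of the 8 tested genes with 95% intervals, diamonds the lower bounds for genes dim on all AAV-V arrays, and dashed lines the median of all genes tested. The estimates against AAV-V run from 1.92 to 4.80 for AAV-GP73 and from 1.67 to 3.73 for AAV-V HFD, and Cpt1a has no diamond above 0.

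AAV-GP73 and AAV-V HFD were then compared directly, in the fit of all 3 groups. Of the 8 genes 0 were called, where 1.96% of all genes were called higher. In the limma test 2 of the 8 (Hadhb and Etfdh) had an unadjusted p under 0.05, as did 915 of all 5763 genes in either direction. All 8 estimates were above 0, with a median of 0.73 on the log2 scale against 0.09 for all genes tested. Etfdh was 2.10-fold higher in AAV-GP73 (log2 fold change 1.07, 95% interval 0.40 to 1.74, adjusted p = 0.0946, and 1.42 with adjusted p = 0.036 under spike-in scaling) and Hadhb 1.95-fold higher (0.97, interval 0.22 to 1.71, adjusted p = 0.177). Every AAV-GP73 array lay above every AAV-V HFD array for 1 of the 8 genes (Etfdh) and for 15.2% of all genes. The intervals of the other 6 genes included 0, from Acads (0.25, interval -0.86 to 1.36) to Cpt2 (0.75, interval -0.14 to 1.64), and these intervals allow a difference in either direction. Diet, the GP73 insert and slide differ together in this comparison.

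**Figure D4:**
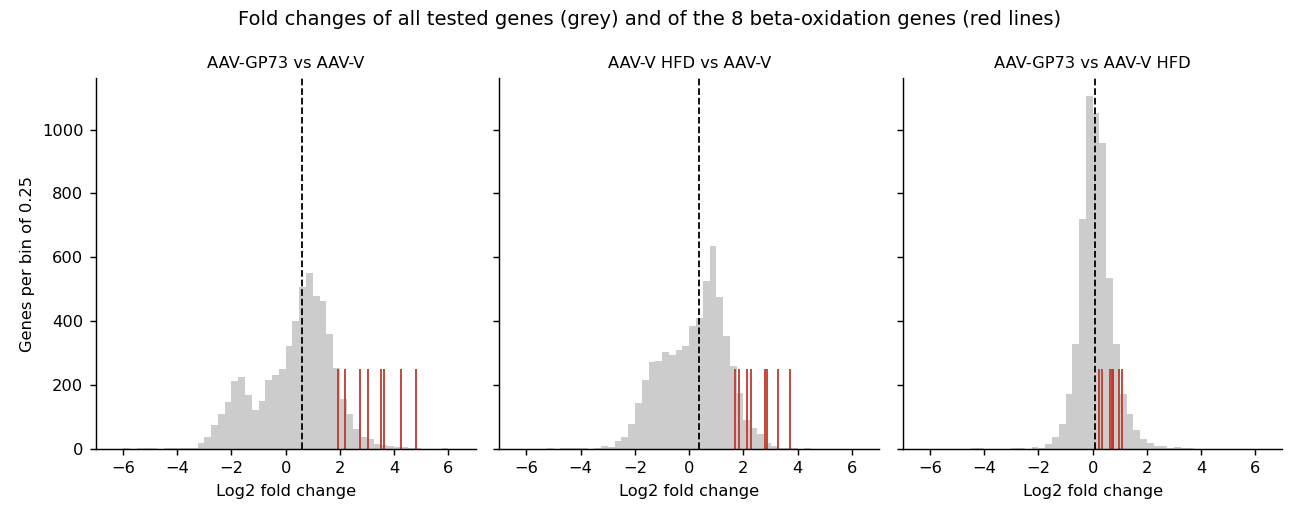
Grey bars count all 5763 tested genes by log2 fold change, red lines mark the 8 beta-oxidation genes and dashed lines the median of all genes. The red lines lie in the right part of both distributions against AAV-V, with medians of 3.28 and 2.55, and between 0.25 and 1.07 in AAV-GP73 against AAV-V HFD.

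The 8 genes followed each other across the arrays. Over the 9 arrays the correlations between any 2 of them ran from 0.72 to 0.997 with a median of 0.96 in 28 pairs, a description that mainly holds the step between AAV-V and the other groups, and arrays share their depth and scaling. Within groups, AAV-GP73 replicate 1 was the lowest of its group for all 8 genes, AAV-GP73 replicate 3 the highest for 6, and AAV-V HFD replicate 2 the highest of its group for 7. Among the genes most like the mean profile of the 8 over the 9 arrays were Prdx5 (r = 0.9949), Pbld2 (0.9947), Acaa2 (0.9946) and Chchd10 (0.9931). Prdx5 encodes a peroxiredoxin and Acaa2 a thiolase of beta-oxidation.

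Other mitochondrial genes of fatty acid oxidation were looked at as a list of 19, of which 14 were tested. With GP73 there were 12 calls higher and 2 lower against AAV-V, beside 33.2% of all genes called higher. Of the 14, 4 were detected on no AAV-V array, Hadh and Eci1 on 1, and Hsd17b10 and Eci2 on 2. All of these passed the filter only through the other groups. These counts describe the genes and are no test of them. The median log2 fold change was 2.66 (2.15 with genes dim in a group at their lower bound). The greatest changes among genes detected on all arrays of both groups were those of Decr1, a reductase for unsaturated fatty acids (log2 fold change 3.36, SE 0.33), of Acaa2 (2.69, SE 0.28) and of Etfb, a subunit of the electron transfer flavoprotein that ETFDH oxidizes (2.42, SE 0.30). These 3 genes were measured above background on every array of both groups. The 2 genes called lower were Acad9, an assembly factor of respiratory complex I related to Acadvl (-1.45, SE 0.26), and Acacb, the acetyl-CoA carboxylase whose product malonyl-CoA inhibits CPT1 (-2.34, SE 0.33). With spike-in scaling neither was called, and Acad9 then had a log2 fold change of 0.23 and Acacb of -0.66. Acad9 was also not called with the 75th percentile of all probes (-0.46). Cpt1b and Cpt1c, the muscle and brain forms of Cpt1a, as well as Slc22a5, Acad10 and Acad12, were not tested, because no array detected them.

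In AAV-V HFD against AAV-V 11 of these 14 genes were called higher and the same 2 lower, where 24.8% of all genes were called higher. Crat, the carnitine acetyltransferase, was not called (0.02, adjusted p = 0.972). The lower calls depended on the scaling here too. Acad9 (-1.35) was not called with the 75th percentile of all probes (-0.39) or with spike-ins (-0.01), and Acacb (-2.28) not with spike-ins (-0.95). Crat was detected on 0 AAV-V arrays, on 3 AAV-GP73 arrays and on 1 AAV-V HFD array, and its HFD difference depended on the scaling, with calls at 1.15 under quantile normalization, 1.35 with spike-ins and 1.33 in the authors' values. It was the only gene of the 14 called between AAV-GP73 and AAV-V HFD (log2 fold change 2.25 higher in AAV-GP73, adjusted p = 0.0128), lost with quantiles (2.04) and the authors' values (2.22), and it is named after its value was seen. Of all genes 1.96% were called higher in that comparison.

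The regulators of the pathway, a list of 10 of which 6 were tested, were called higher than AAV-V for 6 of 6 genes with GP73 and for 6 of 6 on HFD, beside 33.2% and 24.8% of all genes. Of the 6, 3 were detected on no AAV-V array and Sirt3 on 1. These passed the filter only through the groups where they are high, so the counts are no test. On HFD the call of Esrra, a nuclear receptor of mitochondrial genes named after its value was seen, was lost when scaled by the median of detected probes (log2 fold change 1.23). For Esrra no lower bound on a rise could be given in either comparison with AAV-V. Hnf4a, a nuclear receptor of hepatocyte identity, and Rxra, the partner of PPAR alpha, were detected on all arrays and had log2 fold changes of 2.46 (SE 0.32) and 1.62 (SE 0.27) in AAV-GP73 against AAV-V. Ppara itself was at least 2.16-fold and Creb3l3, a liver factor of fasting metabolism, at least 3.76-fold higher in AAV-GP73 than in AAV-V, both named after their values were seen. Ppargc1a, Ppargc1b, Lpin1 and Prkaa2 were not tested. In the direct comparison 0 of the 6 were called by limma, and 2 had an unadjusted p under 0.05, beside 915 of all 5763 genes.

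Peroxisomal beta-oxidation shortens very long chains before they reach mitochondria. Of 15 genes 12 were tested, with 11 calls higher and 1 lower with GP73, and the same numbers on HFD, against AAV-V. Of all genes 33.2% and 24.8% were called higher. Of the 12, 4 were detected on no AAV-V array, and Abcd3, Ech1 and Pecr on 1 each. All of these passed the filter only through the other groups, so the counts are no test. The gene called lower was Acaa1a, a peroxisomal thiolase (-1.53, SE 0.36 in AAV-GP73 and -2.36, SE 0.36 in AAV-V HFD), and with spike-in scaling its AAV-GP73 value turned to 0.15. With the 75th percentile of all probes its AAV-GP73 value was -0.54 and not called. In the direct comparison with HFD, where 1.96% of all genes were called higher, 2 of the 12 were called, both higher in AAV-GP73 and named after their values were seen. They were Ehhadh, the peroxisomal bifunctional enzyme (log2 fold change 3.40, adjusted p = 0.000122), and Crot, the peroxisomal carnitine octanoyltransferase (1.82, adjusted p = 0.0123). Ehhadh was detected on 2 AAV-V HFD arrays and was called under all 6 scalings, and Crot was not called with quantiles (1.71) or the authors' values (1.85). Of the TCA cycle, which takes up the acetyl-CoA, 14 of 17 genes were tested. All 14 were called higher than AAV-V with GP73 and 11 on HFD, beside 33.2% and 24.8% of all genes. On HFD 14 were called with quantiles, spike-ins or the 75th percentile of all probes. Under each of these scalings more of all genes were called higher on HFD too, as counted in the last section. Of the 14, 8 were detected on no AAV-V array, and only Sdhb and Mdh2 on all of them. The rest passed the filter only through the groups where they are high, so these counts describe the genes and are no test. With the median of detected probes 13 were called with GP73. In the direct comparison 0 were called by limma, where 1 had an unadjusted p under 0.05, beside 915 of all 5763 genes. Their median log2 fold change in AAV-GP73 against AAV-V was 1.76 (1.45 with the lower bounds).

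**Figure D5:**
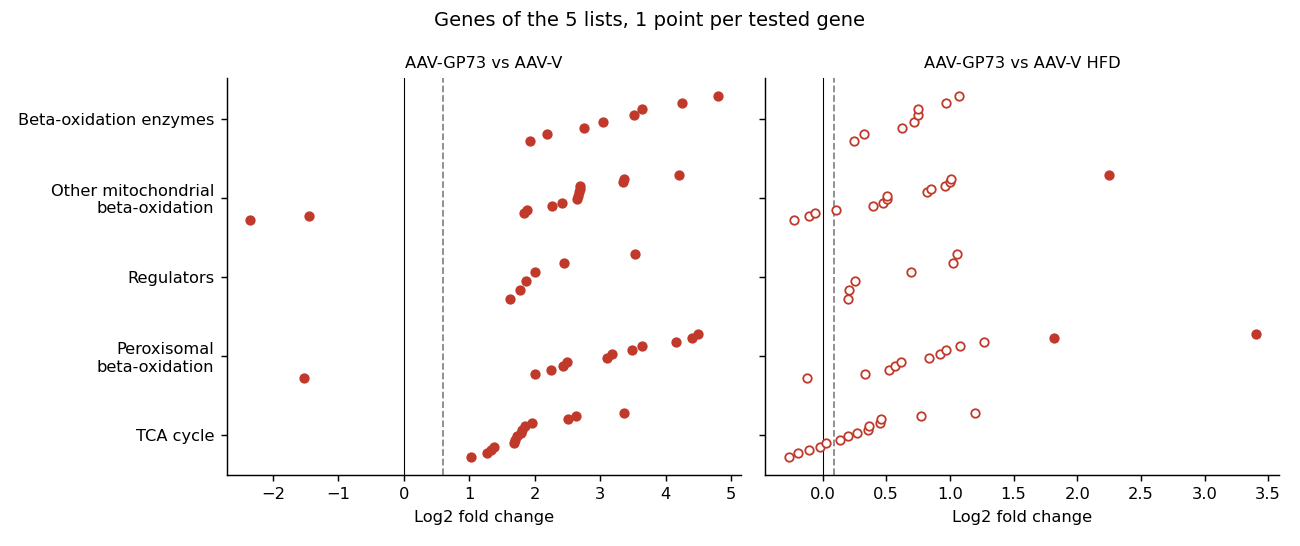
Each point is a tested gene, with its log2 fold change on the x axis, filled if called, and dashed lines show the median of all genes tested. In AAV-GP73 against AAV-V 3 points, Acacb, Acad9 and Acaa1a, lie below 0, and in AAV-GP73 against AAV-V HFD 3 points, Ehhadh, Crat and Crot, are filled.

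Markers of cell types were set beside these values. All 10 hepatocyte markers were detected on every AAV-V and AAV-GP73 array and 9 on every AAV-V HFD array, with summed scaled signals of 10959 to 14323 on the AAV-V arrays, 10370 to 15067 on those of AAV-GP73 and 5642 to 12933 on those of AAV-V HFD. The 3 brightest, Alb (albumin), Trf (transferrin) and Apoa1 (an apolipoprotein), were not called in either comparison with AAV-V, and Alb had mean scaled log2 signals of 12.41, 12.25 and 11.65. Of all genes 33.2% were called higher than AAV-V with GP73 and 24.8% on HFD. With GP73, 3 of the 10 markers passed the test against AAV-V, 2 of them upward and 1 downward, named after their values were seen. These were Tat, a tyrosine aminotransferase (log2 fold change 2.25), Cyp2e1, a cytochrome P450 (1.66), and Cps1 of the urea cycle (-1.59, but not called at -0.59 with the 75th percentile of all probes or at 0.09 with spike-ins). On HFD Cyp2e1 was called higher (1.39) and Cps1 lower (-2.03, not called with spike-ins). With spike-ins 9 of the 10 were called higher with GP73 and 6 on HFD, and with the 75th percentile of all probes 7 and 3. Under both of these scalings most of all genes tested were called higher than AAV-V in both comparisons. The 4 erythroid markers summed to 370.5 to 910 on the AAV-V arrays, 3304 to 16572 on those of AAV-GP73 and 609 to 1072 on those of AAV-V HFD, and the part of blood in the results was not tested. Of the 6 Kupffer cell markers 1 was detected on every array of AAV-V and 3 on every array of each other group, with sums of 90.7 to 109, 86.5 to 144 and 94.7 to 203. The sums of the 6 stellate cell markers were 146 to 276, 163 to 195 and 81.4 to 129, and those of the 5 endothelial markers 23.0 to 31.7, 26.9 to 39.5 and 9.68 to 24.5. These sums hide single genes, named after their values were seen. In AAV-GP73 against AAV-V the stellate gene Des was called lower (log2 fold change -2.14) and Dcn higher (1.20). Reln was not called, and the other stellate markers were not tested. Clec4g, the only endothelial marker tested, was called higher (2.59), though no AAV-V array detected it. No marker of bile duct, lymphocytes, fat or muscle was detected on all 3 arrays of any group, and their sums lay between 4.40 and 32.0. The part of these cells in the results was not tested.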

How the data were processed

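Liver RNA of 9 samples was measured on one-colour Agilent arrays, and samples were grouped by their labels. The authors deposited intensity values of Feature Extraction (12.0.3.1 per the file headers, 10.7 in the submitters' processing notes, which also name limma), background-subtracted and detrended array by array but not scaled across arrays. A deposited table of log2 values per probe name, normalized in a way not given in the sources used here, served as an alternative. Probe coordinates are on mm9. Promoters are RefSeq sequences of GRCm38.p6.

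With R 4.3.3, limma 3.58.1 and data.table (version 1.17.8), log2 processed signals of the 59305 non-control spots (0 saturated, 98 to 151 outlier spots per array left out) were averaged over 56605 probe names and scaled at the 75th percentile of the 2667 probes well above background on all 9 arrays. The brightest probe stood for each gene name. Tests covered the 5763 genes whose probe was detected on every array of 1 or more groups. The 3 groups were fitted together with lmFit and eBayes, and p was adjusted by Benjamini-Hochberg over all genes tested. Adjusted p values in the text are from this fit. For lower bounds, a group in which no array detected the gene was given, array by array, the weakest detected signal or the gene's own where higher. The number of arrays, 3 a group, limits the precision. The p values measure only the spread between these samples, which may be technical. The limma fit and the call rule were tested on simulated data. The scaling, the detection filter and the lower bounds were not tested in this way.

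The members and lists were chosen with earlier results of these data known. All 10 members were named, with each list's genes called lower, not tested or not called in AAV-GP73 against AAV-V, its 3 greatest changes among genes detected on all arrays of both groups, the 3 brightest hepatocyte markers, and the 5 genes most like the members. A gene and a probe sequence that these rules select are not reported here. Alternatives were other scalings, normexp, the authors' values, other filters, each probe by itself, the methods' t-test, only the groups compared, a replicate block, no minimum fold change and leaving out each array.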

Additional observations from a re-analysis of the deposited data

How the results depend on the processing

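The 8 tested genes were called higher than AAV-V in both other groups under scaling by the 75th percentile of all probes, the median of detected probes, quantile normalization and the spike-in controls, and with the authors' log2 values, and 7 to 8 on HFD (8 with GP73) when an array was left out. Over these 6 scalings, the main one included, the median of all genes tested moved between 0.48 and 2.28 with GP73 and between 0.30 and 1.71 on HFD (log2), and the median of the 8 genes stood 2.67 to 2.95 and 2.18 to 2.48 above it. A shift of whole arrays cannot change that distance, so only quantile normalization and the authors' values could move it. Counts of genes called higher and lower moved from 1912 and 1117 to 3719 and 401 with all probes and to 4382 and 84 with spike-ins in AAV-GP73 against AAV-V, and from 1428 and 1049 to 3274 and 182, 2022 and 898 with quantiles, and 3774 and 73 with spike-ins (3847 genes) in AAV-V HFD against AAV-V. By the methods' t-test 7 of the 8 were called in each, Acads being lost. After adjustment it called 4 and 3 of the 6 regulators and 10 and 7 of the 14 TCA cycle genes (GP73 and HFD). The number of all genes that this test called on HFD follows below, and that with GP73 is not given. These t-test counts thus describe the genes and are no test of the lists.

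Normexp with an offset of 50 ended most calls. It left 1 of the 8 with GP73 and 0 on HFD, with medians of 1.18 and 0.69 relative to all genes, and turned Cpt1a to -0.41 and -0.62, Acads to -0.41 and -0.60, and, in AAV-V HFD, Acadl to -0.36 and Hadhb to -0.11. The mean processed signal was under this offset for 8 of the 8 genes in AAV-V, 4 in AAV-V HFD and 2 in AAV-GP73, and the offset shrinks such differences by construction. It called 850 genes with GP73 and 897 on HFD. With no filter 29630 and 27942 genes were called and the relative medians were 4.50 and 3.62, since undetected probes read higher in AAV-V after scaling. With detection required on all 9 arrays 1182, 1019 and 65 genes were called in the 3 comparisons and none of the 10 genes could be tested. The t-test after adjustment called 1558 genes in AAV-V HFD against AAV-V.

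Between AAV-GP73 and AAV-V HFD the number of genes called was 145 and became 30 with quantile normalization, 304 with spike-ins, 42 with normexp, 12 with the authors' values, 29 with no filter, 327 by the t-test unadjusted and 13 adjusted, and 21 to 122 without an array (21 without AAV-GP73 replicate 3). Of the 8 genes 1, Etfdh, was called with spike-ins and by the unadjusted t-test. The t-test after adjustment called 0 of the 8 genes, 0 of the 6 regulators and 0 of the 14 TCA cycle genes there, and limma with spike-ins 1 of the 14. Correlations of deviations between equal replicate numbers were -0.12 to 0.17, with 2 of 9 over 0.1. The labels state no pairing and these correlations, with 3 arrays a group, cannot decide it, so the main fit held no replicate term. The replicate block gave 3029, 2486 and 92 genes in the 3 comparisons and left the calls of the 8 genes as they were. The cause of the other changes was not tested.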
